A study of Homo sapiens with 6 samples.

Results

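Antisense transcripts are RNAs annotated on the strand opposite to another gene. Here the well-expressed ones are the 451 antisense genes, of 3331 genes of that type and 30987 genes of all types in the deposited count table, that reached at least 1 CPM (counts per 1e6 counts of the library) in at least 3 of 6 libraries. Names starting with SNHG or HOX and a short list of well-known host and HOX-locus RNAs were left out, which removed 7 genes. The libraries came from HepG2, a line grown from a human liver tumor, which is 1 cell line and so 1 genetic background. In 3 biological replicates the cells received an siRNA against PAIP1 (siPAIP1), and in 3 others a non-targeting control siRNA (Ctrl). Lipofectamine carried both siRNAs into the cells, which were harvested after 48 h, and directional libraries of polyadenylated RNA were read from both ends. Whether the replicates were separate transfections is not stated, so the p-values measure the spread between these libraries.

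Antisense RNAs arise in several ways. Many start in the same open promoter as a coding gene and run away from it, since promoters of mammalian genes often fire in both directions, and these are also called divergent transcripts. Others start inside or beyond a coding gene and run back across its exons. Such RNAs are known for low levels and for quick turnover by the nuclear exosome, a complex that degrades RNA from its 3′ end. Some act on the gene they face, and many have no known function. PAIP1 binds the protein that coats poly(A) tails and takes part in translation, and its knockdown is the condition compared here.

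PAIP1 itself, the target of the siRNA, measured 94.5, 81.5 and 89.9 CPM in the Ctrl libraries and 27.8, 21.7 and 20.1 CPM in the siPAIP1 libraries (log2 fold change −1.93 ± 0.13 SE, edgeR adjusted p = 0.00092). Library totals lay between 29313211 and 34659866 counts, so 1 CPM stood for 29.3 to 34.7 counts. Liver markers were abundant in every library, with ALB at 279 to 744 FPKM (fragments per kilobase of exon, scaled to depth), while the fibroblast markers together reached at most 0.17 FPKM and the endothelial markers 0.30 FPKM. Of the blood cell markers, CD3E was at 0 and CD68 at 0.83 to 1.00 FPKM, but LYZ, the gene of lysozyme, measured 182 to 286 FPKM. The summed level of 10 hepatocyte markers was lower in siPAIP1 (1750 to 2705 FPKM) than in Ctrl (3140 to 3326 FPKM) and lowest in siPAIP1 replicate 3, and its part in the results was not tested.

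All 451 genes were tested, since the filter on low counts kept every one of them. After PAIP1 knockdown 43 rose (9.53%) and 17 fell (3.77%) at an adjusted p under 0.05 (edgeR quasi-likelihood test, Benjamini-Hochberg adjustment over 15528 genes). Over all genes tested, 5.68% rose and 6.20% fell. Among protein-coding genes that met the same CPM rule the shares were 6.36% and 7.39%. Among 414 lincRNA genes that met it they were 5.80% and 3.62%. These sets were not matched by level. The median CPM was 2.57 over the antisense genes, 28.2 over the coding genes, 2.67 over the lincRNA genes and 16.7 over all genes tested. The median log2 fold change was 0.16 over the antisense genes, 0.11 over the lincRNA genes and 0.03 over all genes tested. It was above 0 for 301 of 451 antisense genes, 257 of 414 lincRNA genes and 8521 of 15528 genes tested. In bulk RNA, a change in the number of cells of one state and a change in RNA per cell cannot be told apart.

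How many genes passed the test depended on the libraries. Without siPAIP1 replicate 3 the counts were 69 higher and 29 lower, where 11.8% of all genes rose and 12.4% fell. Without siPAIP1 replicate 1 they were 23 and 10 (all genes 3.57% and 4.06%), and without siPAIP1 replicate 2 they were 13 and 2 (1.85% and 2.20%). Without Ctrl replicate 1 they were 9 and 3 (all genes 1.17% and 1.81%), without Ctrl replicate 2 they were 10 and 1 (1.68% and 2.63%), and without Ctrl replicate 3 they were 7 and 1 (1.21% and 1.68%). The direction of all 60 called genes was the same under each of the 13 other fits, and 8 of them passed the threshold in every fit. Those fits reuse the same libraries, so a shared direction was favored by choosing genes already called.

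The level rule counts libraries, so a gene could enter through 1 group alone. The threshold was met in the 3 siPAIP1 libraries and in no Ctrl library by 14 genes, and in the 3 Ctrl libraries and in no siPAIP1 library by 6 genes. Of these 20 genes, 5 were called higher and 3 lower, which the way they entered favored. Over the 434 genes with a mean of at least 1 CPM, which does not look at the groups, 39 rose (8.99%) and 14 fell (3.23%). Over the 349 genes at the threshold in all 6 libraries the counts were 36 (10.3%) and 12 (3.44%). Of all genes tested, 5.68% rose and 6.20% fell.

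All 3 siPAIP1 values lay above all 3 Ctrl values for 114 antisense genes (25.3%), against 18.9% of all genes tested. They lay below all Ctrl values for 50 genes (11.1%), against 17.7% of all genes. These counts use CPM on library sizes scaled by TMM (the trimmed mean of M-values), as do the CPM values of single genes given here, except those at the edge of the level rule. Entry through 1 group alone favored groups that do not overlap.

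**Figure D1:**
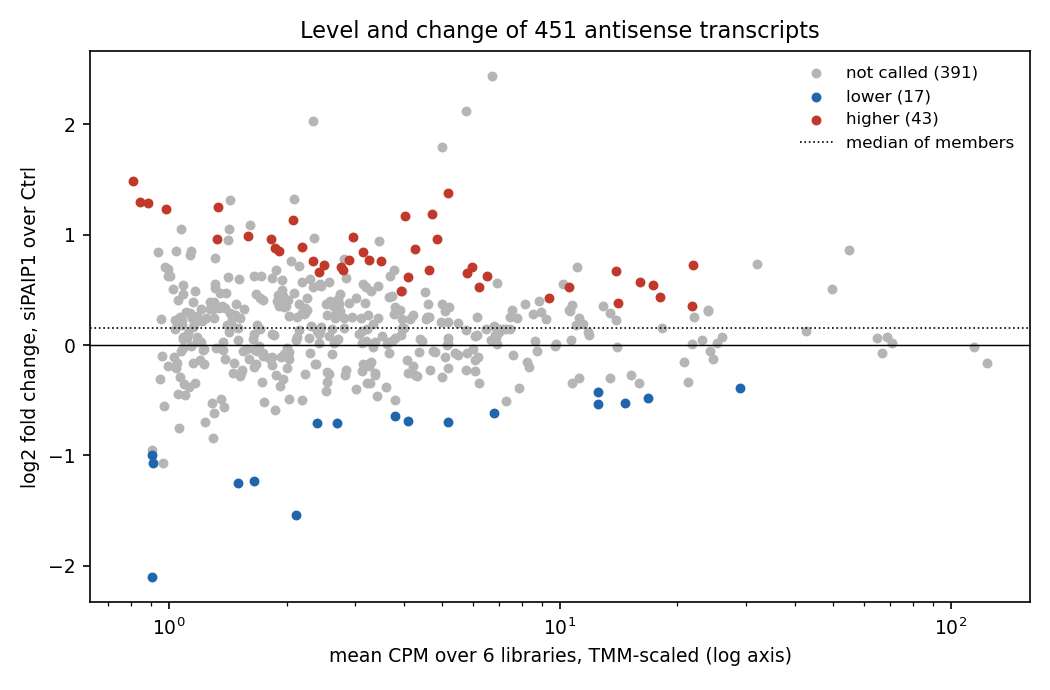
Mean CPM of each of the 451 antisense transcripts over 6 libraries (log axis) against its log2 fold change, siPAIP1 over Ctrl. Red points (43) were called higher, blue points (17) lower and gray points (391) were not called, and the dotted line is the median at 0.16. Several gray points lie above a log2 fold change of 1.

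The study's thresholds for a differentially expressed gene (DEG: adjusted p under 0.05 and at least a 2-fold change) were applied to the fit used here. By them, 9 of the antisense genes were higher and 5 lower. Over all genes tested, 173 (1.11%) were higher and 171 (1.10%) lower. The paper reports more DEGs from its own edgeR run, most of them increases, so the DEGs here are not its list. Of the 9 and 5 antisense genes, 5 and 3 had a mean of at least 1 CPM. Without Ctrl replicate 1 the counts of DEGs were 4 higher and 2 lower, without Ctrl replicate 2 or 3 they were 4 and 1, and without siPAIP1 replicate 2 they were 4 and 2. Without siPAIP1 replicate 1 they were 7 and 5, and without siPAIP1 replicate 3 they were 11 and 7.

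The lowest adjusted p of an increase was that of AC020571.3, now named HECW2-AS1, at chr2:196260024-196264204 on the plus strand, inside HECW2, the gene of a HECT-type ubiquitin ligase. It measured 3.26, 2.56 and 2.79 CPM in Ctrl and 7.78, 8.20 and 6.46 CPM in siPAIP1 (log2 fold change 1.38 ± 0.15 SE, adjusted p = 0.0030). Every siPAIP1 library was more than 6 CPM and every Ctrl library under 4 CPM. HECW2 itself was too low to be tested.

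EXOC3-AS1, at chr5:441498-443160 on the minus strand, begins 15 bases from the start of EXOC3, which encodes a subunit of the exocyst that tethers vesicles to the plasma membrane. It measured 2.48, 2.77 and 2.16 CPM in Ctrl and 5.30, 5.89 and 5.57 CPM in siPAIP1 (1.17 ± 0.14, adjusted p = 0.0040). EXOC3 measured 30.6, 32.5 and 32.7 CPM in Ctrl and 32.8, 32.4 and 42.6 CPM in siPAIP1 (0.17 ± 0.12, adjusted p = 0.37). The groups of the antisense gene were far apart, and those of the sense gene overlapped.

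AC093673.5, now FAM131B-AS2, lies at chr7:143379683-143381036 on the minus strand, and its start is 259 bases from that of ZYX, the gene of the focal adhesion protein zyxin. It measured 2.48, 2.71 and 3.44 CPM in Ctrl and 6.35, 7.63 and 5.66 CPM in siPAIP1 (1.19 ± 0.18, adjusted p = 0.0077). ZYX, at 171 CPM on average, had a log2 fold change of 0.02 ± 0.10 (adjusted p = 0.89). Here too all siPAIP1 values of the antisense gene were above all Ctrl values.

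SLC25A21-AS1, at chr14:37171888-37173811 on the plus strand, faces SLC25A21, a mitochondrial carrier of dicarboxylic acids. It measured 1.62, 1.24 and 1.05 CPM in Ctrl and 2.62, 2.60 and 3.38 CPM in siPAIP1 (1.13 ± 0.22, adjusted p = 0.018). The sense gene rose with it, from 0.838, 0.844 and 0.721 CPM to 1.78, 1.57 and 1.59 CPM (1.03 ± 0.19, adjusted p = 0.015).

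The other 5 DEGs that were higher had Ctrl values under 1 CPM and reached the level threshold in the siPAIP1 libraries alone. RBM26-AS1, beside the gene of the RNA-binding protein RBM26, measured 0.239, 0.542 and 0.492 CPM in Ctrl and 1.40, 1.03 and 1.16 CPM in siPAIP1 (1.49 ± 0.33, adjusted p = 0.028). THAP7-AS1, beside the gene of a zinc finger repressor, measured 0.449, 0.482 and 0.525 CPM against 1.11, 1.23 and 1.26 CPM (1.30 ± 0.21, adjusted p = 0.011). TAPT1-AS1 measured 0.718, 0.422 and 0.623 CPM against 1.40, 1.46 and 1.29 CPM (1.23 ± 0.25, adjusted p = 0.022). RHPN1-AS1 (1.25 ± 0.26, adjusted p = 0.023) and RP1-191J18.66 (1.28 ± 0.28, adjusted p = 0.027), which starts 795 bases from SEC63, the gene of a component of the protein channel of the endoplasmic reticulum, completed the group. The way these 5 genes entered kept their groups apart, so their separation is a description only.

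Of the genes that fell, HNF4A-AS1 had the lowest adjusted p. It lies at chr20:44372746-44395706 on the minus strand inside HNF4A, whose product is a nuclear receptor central to hepatocyte identity, and shares no exon base with it. It measured 3.23, 3.28 and 2.92 CPM in Ctrl and 1.11, 1.00 and 1.13 CPM in siPAIP1 (−1.54 ± 0.16, adjusted p = 0.0026), so each siPAIP1 value was well under each Ctrl value. HNF4A measured 227, 248 and 219 CPM in Ctrl and 181, 166 and 237 CPM in siPAIP1 (−0.25 ± 0.14, adjusted p = 0.27), with overlapping groups. In each Ctrl library the antisense counts were 1.33% to 1.42% of the HNF4A counts, and in each siPAIP1 library 0.476% to 0.612%.

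RP11-134L10.1 and GACAT2 reached the level threshold in the Ctrl libraries alone, so their entry favored a lower call. RP11-134L10.1 measured 1.05, 1.54 and 1.84 CPM in Ctrl and 0.408, 0.400 and 0.199 CPM in siPAIP1 (−2.10 ± 0.35, adjusted p = 0.011). Its exon bases lie to 62.1% on exons of C7orf49 (now CYREN), the gene of a regulator of DNA end joining, whose log2 fold change was 0.01 ± 0.09. RP11-465N4.4, now ELF3-AS1, measured 2.42, 2.02 and 2.49 CPM against 0.728, 0.943 and 1.29 CPM (−1.23 ± 0.24, adjusted p = 0.019). ELF3, an epithelial Ets factor that it crosses, fell as well (−0.58 ± 0.08, adjusted p = 0.0073). GACAT2 (−1.07 ± 0.24, adjusted p = 0.031) and RP11-706C16.7 (−1.25 ± 0.27, adjusted p = 0.026) were the remaining DEGs.

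**Figure D2:**
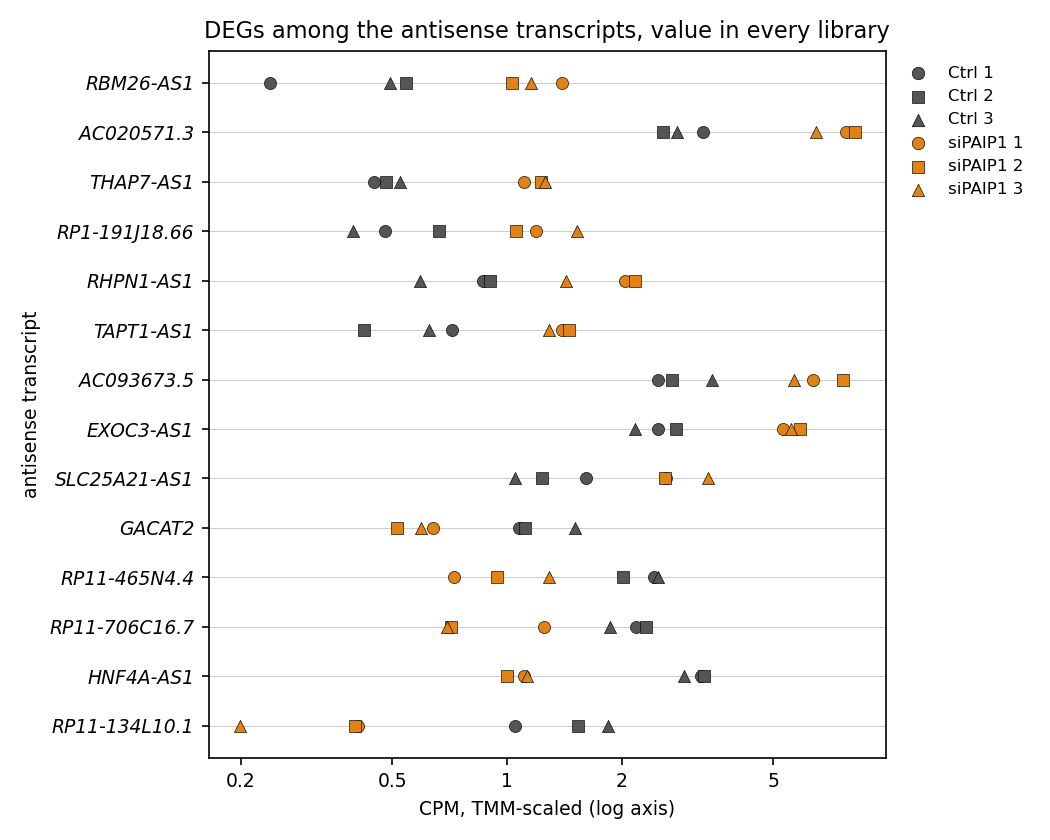
TMM-scaled CPM (log axis) of the 14 antisense transcripts that were DEGs, in each Ctrl library (gray) and each siPAIP1 library (orange), with a marker shape for each replicate. The upper 9 have the orange points to the right of the gray ones and the lower 5 to the left, which for 7 of the 14 was favored by entry through 1 group alone.

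Below the 2-fold limit, the called genes included some of the better expressed ones. WAC-AS1, beside the gene of an adaptor protein of histone ubiquitination, measured 13.3, 13.3 and 12.2 CPM in Ctrl and 18.6, 19.4 and 19.5 CPM in siPAIP1 (0.57 ± 0.08, adjusted p = 0.0061). ST7-AS1 measured 3.44, 2.83 and 3.64 CPM against 6.52, 6.43 and 6.33 CPM (0.96 ± 0.13, adjusted p = 0.0060). Both held their call in every other fit, as did RP11-379H18.1 (now HERPUD2-AS1, 0.87 ± 0.12, adjusted p = 0.0063) and AC009948.5 (now CHROMR, 0.98 ± 0.14, adjusted p = 0.0068). The sense genes WAC (0.06 ± 0.08, adjusted p = 0.66) and ST7 (−0.30 ± 0.11, adjusted p = 0.12) did not pass the test.

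Further members with low adjusted p were RP11-420L9.5 (0.67 ± 0.11), which starts 602 bases from PXDC1, RP5-908M14.9 (0.66 ± 0.11), which starts 103 bases from the ribosomal protein gene RPS21, and RP1-267D11.6 (0.71 ± 0.12), which starts 595 bases from RAB35, a GTPase of endosome recycling. Among the genes that fell were CTB-25B13.12 (−0.53 ± 0.10), PITPNA-AS1 (−0.62 ± 0.12), DBH-AS1 (−0.70 ± 0.14) and PRKG1-AS1 (−0.71 ± 0.15). The start of PRKG1-AS1 is 226 bases from that of DKK1, a secreted inhibitor of Wnt signaling, and DKK1 fell too (−0.99 ± 0.12, adjusted p = 0.0043). HNF4A-AS1 was the single gene of the 17 that were called lower to keep its call in all 13 other fits.

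RP5-940J5.9 is a case where position makes the value uncertain. All of its 422 exon bases lie on exons of GAPDH, on the other strand. It measured 14.01, 14.29 and 14.82 CPM in Ctrl and 10.63, 10.46 and 10.96 CPM in siPAIP1 (−0.43 ± 0.08, adjusted p = 0.015), and its mean was 0.318% of the mean of GAPDH. The log2 fold change of GAPDH was −0.19 ± 0.10 (adjusted p = 0.24). No source used here says whether counting used the strand, so reads of an overlapping pair cannot be told apart.

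Positions were taken from GENCODE release 44 on GRCh38, the build of the alignments. The identifiers of 433 of the 451 genes were found there, and 18 were not. The start of 197 genes lay within 1000 bases of the start of a coding gene on the opposite strand. A further 178 shared exon bases with an opposite-strand gene but started elsewhere, 41 lay inside or across an opposite-strand coding gene without shared exon bases, and 17 had no coding gene opposite. In this release 8 of the genes are listed as protein-coding.

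The genes that start beside a coding start held most of the increases. Of these 197, 27 rose (13.7%) and 5 fell (2.54%), against 5.68% and 6.20% of all genes tested. The 27 include the 5 DEGs that entered through the siPAIP1 libraries alone. Of the 4 higher DEGs at the level threshold in all 6 libraries, 3 were among them. Of the 178 with shared exons and distant starts, 11 rose and 8 fell. Of the 41 without shared exons, 4 rose and 2 fell, and of the 17 without a coding gene opposite, none rose and 1 fell. The median log2 fold changes were 0.21, 0.22, −0.06 and 0.02 in that order. The difference between these groups was not tested. The coding genes with a start within 1000 bases of theirs that were tested, 189 in number, had a median of 0.02, with 10 higher and 17 lower. Strand and distance alone defined this class, so it is not limited to pairs that run apart from 1 promoter. SLC25A21-AS1, for example, has 16.9% of its exon bases on opposite-strand exons.

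**Figure D3:**
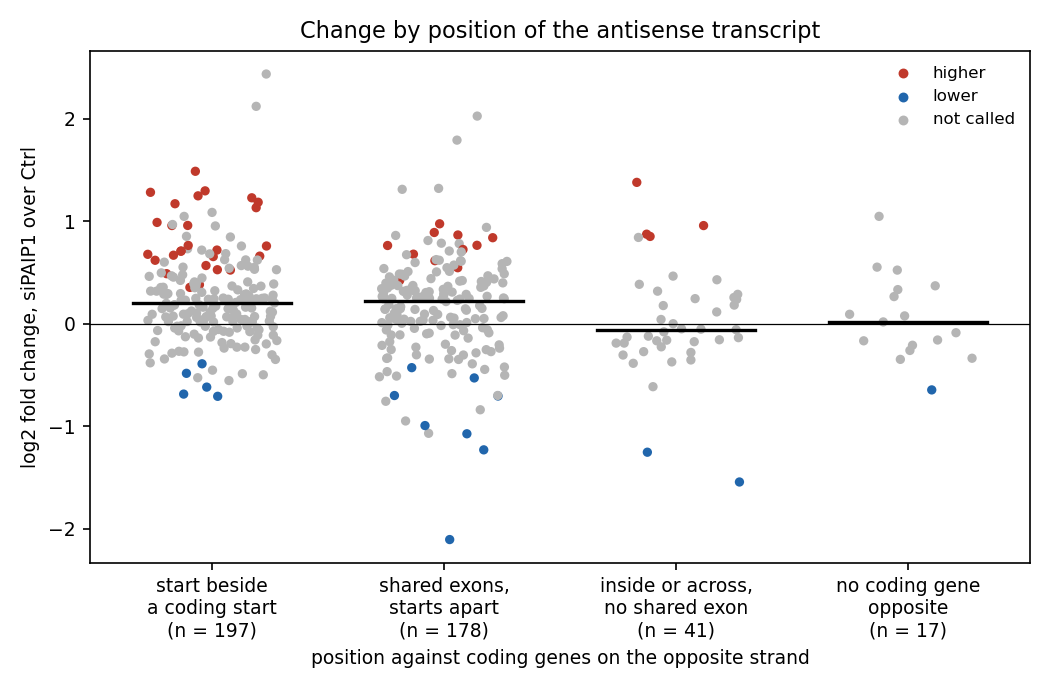
Log2 fold change, siPAIP1 over Ctrl, of the 433 antisense transcripts found in GENCODE release 44, by their position against coding genes on the opposite strand. Points are genes (red called higher, blue called lower, gray not called, spread sideways at random), black bars are medians, and 27 of the 43 red points are in the first column.

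The shares of called genes were also counted by exon overlap. Over all genes tested, 5.68% rose and 6.20% fell. Of 98 genes without any exon base on an opposite-strand exon, 10 rose (10.2%) and 4 fell (4.08%). Of 335 genes with such bases 32 rose (9.55%) and 12 fell (3.58%). Of the 56 genes with at least 50% of their exon bases on opposite-strand exons, 4 rose (7.14%) and 3 fell (5.36%), near the shares over all genes. For 325 genes the coding gene they overlap was tested too, and the log2 fold changes of the pair had the same sign in 54.2% of cases. Their Pearson correlation was 0.064 across pairs, which share libraries and are not independent.

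The start regions of the genes are shown for those DEGs, and for the single pair that changed in opposite directions, whose RefSeq promoter window (250 bases before to 50 bases after the start, GRCh38.p14) holds no annotated UTR. They are given to set the windows of genes beside a coding start next to those inside a gene. Capitals mark, on either strand, the word CCAAT of the box that NF-Y binds, the word GGGCGG of the box that Sp1 factors bind, or the word TATAAA of the TATA box, and no window shown holds more than 1 kind. Each window is written from 5′ to 3′ on the strand of the antisense gene.
HECW2-AS1 (chr2:196259774-196260073, plus strand): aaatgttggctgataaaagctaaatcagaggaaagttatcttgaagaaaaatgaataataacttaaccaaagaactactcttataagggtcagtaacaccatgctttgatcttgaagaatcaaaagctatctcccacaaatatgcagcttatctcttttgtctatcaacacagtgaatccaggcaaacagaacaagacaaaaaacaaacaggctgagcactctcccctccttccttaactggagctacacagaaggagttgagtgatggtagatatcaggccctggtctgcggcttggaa
FAM131B-AS2 (chr7:143380976-143381275, minus strand): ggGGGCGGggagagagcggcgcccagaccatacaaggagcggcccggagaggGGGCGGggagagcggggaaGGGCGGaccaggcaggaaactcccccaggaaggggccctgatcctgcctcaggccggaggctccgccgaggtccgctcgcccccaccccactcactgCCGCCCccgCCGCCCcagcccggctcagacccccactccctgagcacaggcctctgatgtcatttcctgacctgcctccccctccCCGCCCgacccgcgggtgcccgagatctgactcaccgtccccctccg
SLC25A21-AS1 (chr14:37171776-37172075, plus strand): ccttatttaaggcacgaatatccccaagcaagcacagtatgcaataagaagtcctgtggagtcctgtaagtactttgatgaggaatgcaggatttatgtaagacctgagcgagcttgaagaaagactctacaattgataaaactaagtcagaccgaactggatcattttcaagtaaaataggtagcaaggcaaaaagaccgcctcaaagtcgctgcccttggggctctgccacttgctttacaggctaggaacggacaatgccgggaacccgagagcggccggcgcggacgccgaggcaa
CEBPA-DT (chr19:33302571-33302870, plus strand): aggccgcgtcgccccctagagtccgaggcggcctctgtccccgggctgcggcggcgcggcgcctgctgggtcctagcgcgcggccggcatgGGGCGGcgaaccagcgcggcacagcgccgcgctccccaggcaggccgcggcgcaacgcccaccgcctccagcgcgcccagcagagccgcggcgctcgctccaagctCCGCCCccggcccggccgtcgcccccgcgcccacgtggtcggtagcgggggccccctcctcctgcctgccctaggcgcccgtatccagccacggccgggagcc
GACAT2 (chr18:8707572-8707871, minus strand): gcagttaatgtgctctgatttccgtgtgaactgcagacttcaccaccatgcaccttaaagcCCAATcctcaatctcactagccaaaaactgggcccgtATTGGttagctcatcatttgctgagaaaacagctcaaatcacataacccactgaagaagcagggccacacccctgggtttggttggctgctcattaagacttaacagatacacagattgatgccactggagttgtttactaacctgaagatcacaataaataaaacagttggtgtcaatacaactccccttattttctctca
HNF4A-AS1 (chr20:44395657-44395956, minus strand): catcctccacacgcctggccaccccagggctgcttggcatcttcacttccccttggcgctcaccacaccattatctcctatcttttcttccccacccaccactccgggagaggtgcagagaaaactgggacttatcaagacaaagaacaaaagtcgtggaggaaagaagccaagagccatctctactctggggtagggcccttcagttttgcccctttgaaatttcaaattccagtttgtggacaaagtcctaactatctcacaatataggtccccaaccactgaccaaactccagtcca

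FAM131B-AS2 held 6 copies of GGGCGG and CEBPA-DT 2, and their GC contents were 74.0% and 81.0%. Both start beside a coding start. SLC25A21-AS1, whose start is also near a coding start, held none of the words in this window, at a GC content of 48.7%. HECW2-AS1, HNF4A-AS1 and GACAT2, which lie inside coding genes, had GC contents of 39.7%, 50.7% and 43.7% and held no GGGCGG, and GACAT2 held CCAAT in 2 places. In 47 positions of the CEBPA-DT window a C was followed by a G, against 24 in FAM131B-AS2, 14 in SLC25A21-AS1, 4 in HNF4A-AS1, 2 in GACAT2 and 1 in HECW2-AS1.

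A RefSeq window was found by name, chromosome and strand for 233 members. GGGCGG (or CCGCCC) was present in 74.4% of the 133 windows of genes beside a coding start, in 56% of the 100 other windows and in 43.8% of 27305 windows of all RefSeq genes. CCAAT (or ATTGG) was present in 36.1%, 36% and 35.6%, and TATAAA (or TTTATA) in 3.01%, 9% and 12.1%. The median number of CG pairs per window was 30, 19.5 and 13. Of 24 windows of genes that rose, 15 held GGGCGG and none held TATAAA, and of 9 windows of genes that fell, 3 and 2 did. These matches describe the letters in the window and were not tested.

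Of the 451 genes, 156 carry the symbol of another gene, -AS and a number. The named sense gene had a row in the table for 152 of them, and in 135 pairs it was tested as well. The antisense RNA was usually the less abundant. Its mean FPKM was a median of 0.286 of that of the sense gene over 151 pairs, under 0.1 of it in 40 pairs, and above it in 41. At the low end of the ratios, HMGN3-AS1 measured 0.310 FPKM against 81.4 FPKM for HMGN3, a nucleosome-binding protein. At the high end, FGD5-AS1 measured 11.8 FPKM while FGD5 measured 0.0033 FPKM.

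Both genes of a pair were called in 3 pairs. Of the 13 antisense genes that rose in these 135 pairs, the sense gene rose in 2, fell in 1 and was not called in 10. In the 4 pairs with an antisense gene that fell, the sense gene was not called. Conversely, of 8 sense genes that rose and 11 that fell, the antisense gene was not called in 6 and 10. Over all genes tested, 5.68% rose and 6.20% fell, and the number of joint calls was not tested against such shares. The log2 fold changes had the same sign in 72 of 135 pairs (53.3%), with a Pearson correlation of 0.16 and a Spearman correlation of 0.11 across pairs, which come from the same libraries. The difference of the changes within a pair was not tested.

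**Figure D4:**
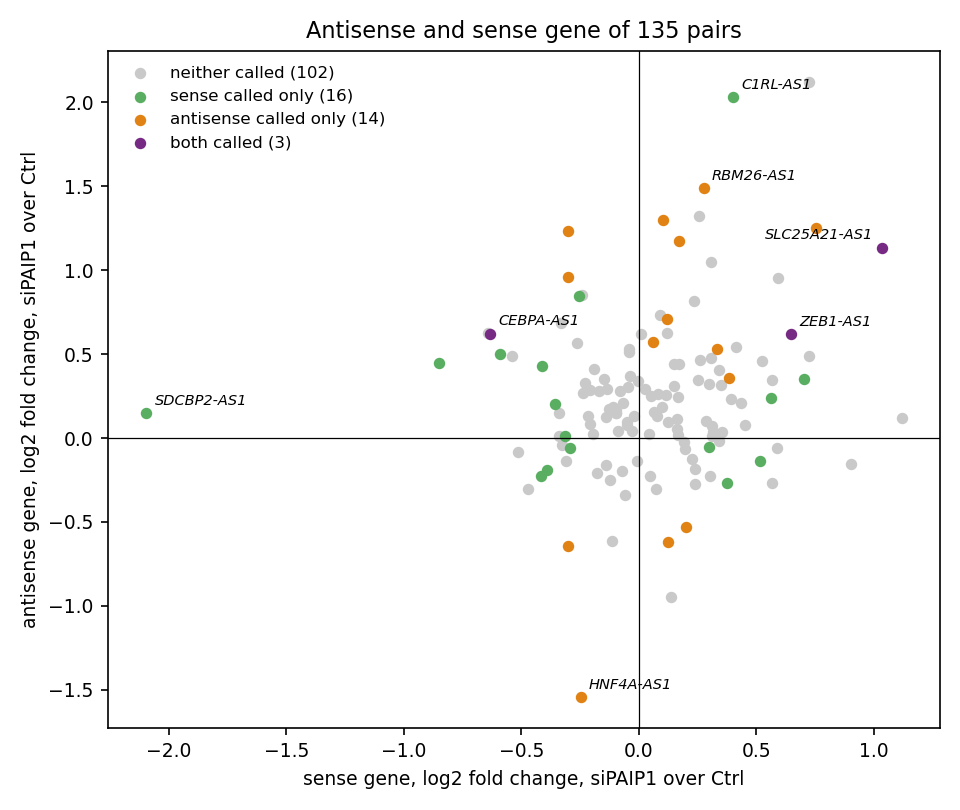
Log2 fold change, siPAIP1 over Ctrl, of the antisense gene against that of the sense gene its symbol names, for 135 pairs in which both were tested. Colors show which gene of the pair was called, and of the 3 pairs in which both were called, CEBPA-AS1 lies in the quadrant of opposite changes.

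CEBPA-AS1 (now CEBPA-DT) was the antisense gene called in the opposite direction to its partner. It lies at chr19:33302857-33305054 on the plus strand, and its start is 323 bases from that of CEBPA, a leucine zipper factor of hepatocyte genes, with no shared exon base. CEBPA-AS1 measured 5.27, 5.55 and 4.56 CPM in Ctrl and 7.89, 7.06 and 8.71 CPM in siPAIP1 (0.62 ± 0.13, adjusted p = 0.023). CEBPA measured 182, 183 and 192 CPM in Ctrl and 130, 116 and 114 CPM in siPAIP1 (−0.63 ± 0.08, adjusted p = 0.0044). The antisense counts were 2.37% to 3.02% of the CEBPA counts in Ctrl and 6.08% to 7.62% in siPAIP1. That these ratios do not overlap follows from the opposite changes by which the pair was picked, and adds no support of its own.

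ZEB1-AS1 and ZEB1, a zinc finger repressor of epithelial genes, rose together. ZEB1-AS1 measured 3.20, 3.22 and 3.25 CPM in Ctrl and 4.31, 5.69 and 4.84 CPM in siPAIP1 (0.62 ± 0.14, adjusted p = 0.033). ZEB1 measured 4.998, 6.78 and 6.39 CPM in Ctrl and 8.27, 9.80 and 10.4 CPM in siPAIP1 (0.65 ± 0.15, adjusted p = 0.033). The ratio of their counts was 47.6% to 64.1% in Ctrl and 46.5% to 58.0% in siPAIP1, and the groups overlapped.

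The largest change of a called sense gene in these pairs was that of SDCBP2, whose antisense gene was not called. SDCBP2, which encodes a syntenin, measured 7.66, 8.29 and 9.15 CPM in Ctrl and 2.07, 1.77 and 2.02 CPM in siPAIP1 (−2.10 ± 0.13, adjusted p = 0.00085). SDCBP2-AS1 measured 3.11, 2.62 and 3.44 CPM in Ctrl and 3.20, 3.77 and 3.18 CPM in siPAIP1 (0.15 ± 0.16, adjusted p = 0.57). A further called sense gene was CKMT2, a mitochondrial creatine kinase (−0.85 ± 0.14, adjusted p = 0.012, lower), with CKMT2-AS1 at 0.45 ± 0.20 (adjusted p = 0.19). The start of CKMT2-AS1 is 22 bases from that of another coding gene, ZCCHC9 (−0.02 ± 0.09). TMCC1, a protein of the endoplasmic reticulum membrane, also fell (−0.59 ± 0.08, adjusted p = 0.0057), with TMCC1-AS1 at 0.50 ± 0.17 (adjusted p = 0.098). Other called sense genes had a change of the same sign as that of their uncalled antisense gene. TMEM44 rose (0.70 ± 0.15, adjusted p = 0.029), with TMEM44-AS1 at 0.35. TRAF3IP2 fell (−0.42 ± 0.10, adjusted p = 0.045), with TRAF3IP2-AS1 at −0.23. The pairs in this paragraph were chosen after their values were seen.

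Grouped by the known role of the partner gene, the numbers were small and are given as a description, beside 5.68% higher and 6.20% lower over all genes tested. THAP7-AS1, RBM26-AS1, ACVR2B-AS1 and CCNT2-AS1, the last 2 of the cell cycle and growth group, entered through the siPAIP1 libraries alone. Such entry favored higher values, in calls, near calls and medians alike. APOA1-AS, of the transport and liver metabolism group, entered through the Ctrl libraries alone, which favored a lower value. Of 9 antisense genes of zinc finger genes 2 rose (THAP7-AS1 and ZNF503-AS2, 0.53 ± 0.09), none fell, and the median log2 fold change was 0.31. Of 12 at other transcription factor and chromatin genes 2 rose (CEBPA-AS1 and ZEB1-AS1) and 1 fell (HNF4A-AS1), with a median of 0.25. Of 6 at genes of RNA and translation factors 1 rose (RBM26-AS1), with a median of 0.05, and of 5 at genes of transport and liver metabolism 1 rose (SLC25A21-AS1), with a median of 0.01. None of 4 at cell cycle and growth genes passed the test (median 0.39), the nearest being ACVR2B-AS1, beside the gene of an activin receptor, at 1.05 ± 0.29 (adjusted p = 0.056).

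The genes of the machinery that degrades RNA gave few calls, and over all genes tested 5.68% rose and 6.20% fell. Of 24 genes of nuclear RNA turnover (the exosome, its helicase and its adaptors) 1 fell, ZCCHC8, a scaffold of the nuclear exosome targeting complex (−0.30 ± 0.07, adjusted p = 0.034), and none rose. NCBP2, of the cap-binding complex, had −0.24 ± 0.06 (adjusted p = 0.051), and RBM7, another member of the targeting complex, 0.31 ± 0.10 (adjusted p = 0.081). None of 10 genes of decay under translation passed the test in edgeR, with UPF3A nearest at 0.16 ± 0.06 (adjusted p = 0.16), and 1 of the 10 had an unadjusted p under 0.05.

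Per length, the antisense genes were low. Their median over the mean FPKM was 1.61, against 3.90 over all genes tested. It was 6.58 over coding genes and 1.74 over lincRNA genes that met the same CPM rule. The antisense genes ranged from 0.0333 to 213 FPKM. The 10 with the most counts held 26.5% of all member counts and the top 50 held 52.8%. The 3 highest per length were RP4-614O4.11 (213 FPKM), whose exon bases lie to 80.3% on exons of another gene on the same strand, RP11-282O18.3 (44.5 FPKM), whose position was not found, and RP5-940J5.9 (26.9 FPKM), within the GAPDH exons. PINK1-AS, which faces the gene of a mitochondrial kinase, followed at 23.4 FPKM and AC074117.10 (now GTF3C2-AS2) at 19.04 FPKM.

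Most of these abundant genes were not called. RP4-614O4.11 measured 135, 117 and 140 CPM in Ctrl and 124, 119 and 109 CPM in siPAIP1 (−0.16 ± 0.09, adjusted p = 0.29), and PINK1-AS 122, 111 and 112 CPM against 114, 109 and 118 CPM (−0.02 ± 0.07, adjusted p = 0.91). Among the 10 highest by FPKM, RP5-940J5.9 and RP11-295G20.2 (−0.48 ± 0.11, adjusted p = 0.035) fell and RNASEH1-AS1 (0.36 ± 0.09, adjusted p = 0.038) rose. The other 7 were not called, LBX2-AS1 (0.12 ± 0.08), RP11-290D2.6 (0.18 ± 0.20) and BOK-AS1 (0.25 ± 0.10) among them.

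The antisense genes together held 0.236%, 0.252% and 0.238% of all counts in the Ctrl libraries (mean 0.242% ± 0.00887 SD, n = 3) and 0.262%, 0.264% and 0.311% in the siPAIP1 libraries (0.279% ± 0.0276 SD, n = 3). All siPAIP1 shares were above all Ctrl shares, with p = 0.1 in an exact two-sided permutation test, below which 3 libraries per group cannot go. Without siPAIP1 replicate 3 the difference of the means was 0.0206 percentage points, against 0.0366 with it. On TMM-scaled library sizes it was 0.0252 with all libraries. The lincRNA genes that met the same CPM rule held 0.274%, 0.304% and 0.275% in Ctrl. In siPAIP1 they held 0.275%, 0.289% and 0.521%, so their groups overlapped, with a difference of means of 0.0772 percentage points. Library siPAIP1 replicate 3 stood above the other siPAIP1 libraries. Against the Ctrl mean, the median log2 ratio of the members was 0.06, 0.09 and 0.20 in siPAIP1 replicates 1 to 3, and between −0.03 and 0.01 in the Ctrl libraries.

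**Figure D5:**
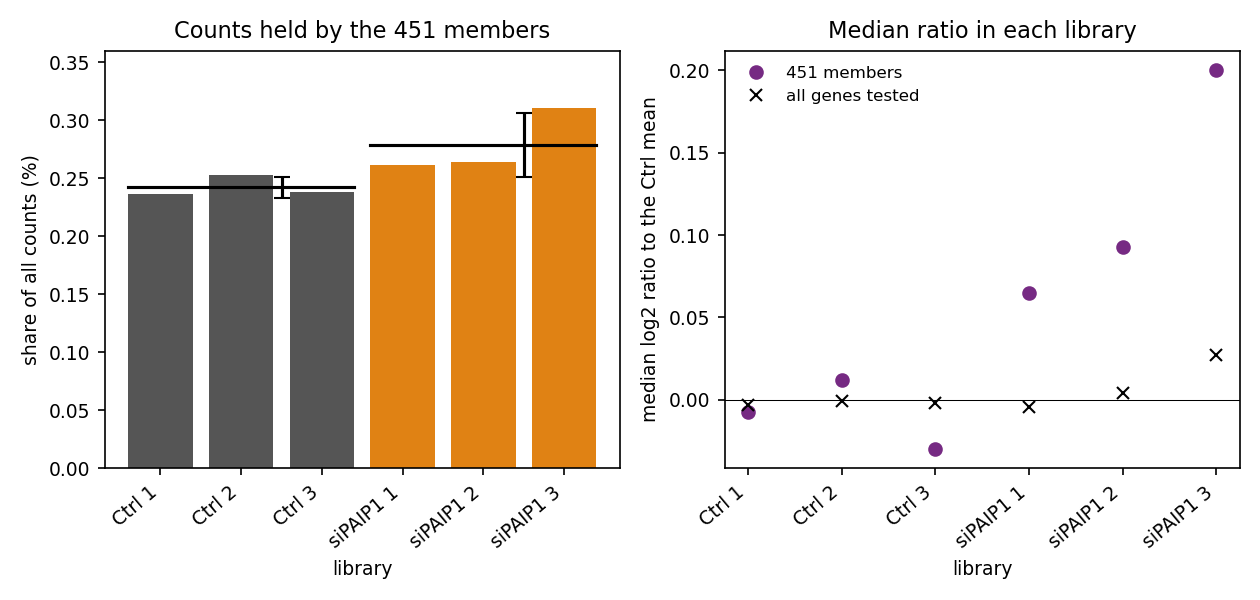
Left, share of all counts held by the 451 antisense transcripts in each library (bars, %, axis from 0), with the group mean (line) and SD (error bar, n = 3). Right, median log2 ratio to the Ctrl mean in each library, for the 451 members (circles) and for all genes tested (crosses), with the highest median, 0.20, in siPAIP1 replicate 3.

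In siPAIP1 replicate 3, 27 of the 451 genes lay more than 2-fold above the mean of siPAIP1 replicates 1 and 2, as did 965 of all 15528 genes tested, a share close to that of the antisense genes. The 3 uncalled genes given next had their highest value in that library. C1RL-AS1, named for the gene of a complement protease, measured 0.808, 1.33 and 0.590 CPM in Ctrl and 1.28, 0.857 and 9.14 CPM in siPAIP1 (2.03 ± 0.89, adjusted p = 0.18). FBXL19-AS1 measured 1.65, 2.80 and 1.97 CPM against 4.14, 3.89 and 20.1 CPM (2.12 ± 0.67, adjusted p = 0.083), and a gene listed as RPPH1, after the RNA of RNase P, 1.92, 2.92 and 1.41 CPM against 2.30, 10.5 and 21.3 CPM (2.44 ± 0.71, adjusted p = 0.069). In all, 9 genes with a log2 fold change of at least 1 were not called. These genes were chosen after their values were seen.

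At the edge of the level rule, which uses CPM over plain library sums, the 3 genes just inside were AC005592.2 and ZSWIM8-AS1, both at 1.0015 CPM in the library that decided their entry, and RP11-712L6.5 at 1.01 CPM. Just outside were RP11-45A17.2, RP1-30M3.5 and LINC00649, all at 0.999 CPM. A further 426 antisense genes under the rule or left out by name were tested, with a median log2 fold change of 0.18. Of these, 10 rose (2.35%) and 4 fell (0.939%), against 5.68% and 6.20% over all genes tested. Their median level was 0.512 CPM, against 16.7 CPM over all genes tested, and low counts limit the test.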

How the data were processed

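RNA of 6 HepG2 libraries (3 siPAIP1, 3 Ctrl, mapped to groups by their labels) was analysed from 2 tables. The authors removed adaptors and poor bases with FASTX-Toolkit, ran TopHat2 against GRCh38 with up to 4 mismatches and deposited raw counts of uniquely mapped fragments per gene. The authors also deposited FPKM values, made from those alignments with 2 decimals. The labels name bcl2fastq and edgeR too. No source used here names the counting tool or the annotation release, or says whether strand was used.

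Counts were read into R 4.3.3, scaled by TMM and filtered with filterByExpr in edgeR 4.0.16, which kept 15528 genes. Group was the only term of the quasi-likelihood fit (glmQLFit, glmQLFTest), and p-values were adjusted by Benjamini-Hochberg over all of them. The standard error (SE) is the log2 fold change divided by the square root of its F statistic. The script was tested on simulated data. Depth was 29313211 to 34659866 counts per library, and 3 libraries per group limit an exact test to p = 0.1. Positions came from GENCODE release 44 by identifier without its version, and promoter windows from RefSeq. Named genes were the 10 highest by FPKM, the 12 of lowest adjusted p in each direction, all DEGs, their sense genes, up to 4 per partner or turnover list, the edge of the level rule, and PAIP1. Some were left out of the text. The members and lists were chosen with earlier results of these data known. Alternatives were RLE and upper-quartile factors, no filter, DESeq2 1.42.0, limma 3.58.1 on log2(FPKM + 0.1) and log2(FPKM + 1), a replicate block, other member sets and leaving out each library. The numbers of the libraries do not come with a stated pairing.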

Additional observations from a re-analysis of the deposited data

How the results depend on the processing

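The median log2 fold change of the antisense genes stayed between 0.09 and 0.17 under all 16 alternatives. The counts of called genes, 43 higher and 17 lower, were 35 to 53 and 14 to 18 under other scaling, no filter, DESeq2 and limma on FPKM, and 7 to 69 and 1 to 29 when 1 library was left out. Of all genes in the former fits, 2.64% to 5.19% rose and 3.24% to 6.36% fell. The lowest of these shares are over 30987 genes. When 1 library was left out, 1.17% to 11.8% of all genes rose and 1.68% to 12.4% fell. With a replicate block the counts were 13 higher and 4 lower, where 2.36% of all genes rose and 2.96% fell. In that fit 5 DEGs were higher, and 18 of 38 named calls were still called. Same-numbered libraries deviated with correlations of 0.26, −0.28 and −0.15, so the numbers were not read as pairs, and the cause of the lower counts was not tested. Counts of DEGs, 9 higher and 5 lower, ranged from 4 to 11 and 1 to 7 when 1 library was left out, and named calls, 38 in the fit reported, from 9 to 38. Other moves were 16 DEGs higher with no filter, 2 higher and 0 lower with log2(FPKM + 1), 4 and 1 for genes at 1 CPM in all 6 libraries, 5 and 3 for a mean of 1 CPM, and 4 and 3 without the 20 genes that entered through 1 group alone, a set chosen after seeing the data. Under log2(FPKM + 1) in limma, 153 members had an unadjusted p under 0.05, and adding 1 shrinks changes of genes at these levels. The difference in the share of counts stayed positive, from 0.0206 to 0.0451 percentage points without 1 library, and no exact p could pass 0.05. At 1 CPM a library gave about 29.3 to 34.7 counts, and this limits the precision for the 167 members under 2 CPM.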
